A study of Mus musculus with 12 samples.

Results

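The Oas genes encode the 2′-5′-oligoadenylate synthetase family of antiviral proteins, and they were taken here as every gene of the deposited blood expression table whose symbol begins with Oas. Of the 8003 genes in that table, 8 met this rule: Oas1a, Oas1c, Oas1e, Oas1g, Oas2, Oas3, Oasl1 and Oasl2. None of the 284 genes in the hippocampus table did. The paper reports a larger number of different genes for the hippocampus, so that table may not be its full called set. The blood table holds the genes that the authors had called different between the control and the *A. muciniphila*-treated group. Each member had thus been selected on the same contrast that its values describe. The group differences below are therefore a description, and no test of them is given as support.

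Blood RNA of 15-month-old C57BL/6 mice was sequenced from 3 mice labelled Normal (Ctrl 1, 2 and 3) and 3 mice of the *Akkermansia muciniphila* group (Akk 1, 2 and 3), with 1 library per mouse. The treatment is given in the labels as a membrane protein of this bacterium, for 8 weeks in the sample field and 6 weeks in the protocol field. The methods of the study instead describe antibiotic-pretreated mice that received the bacterium, or the vehicle in the control arm, by gavage. They also state that the sequenced RNA came from mice whose gut the bacterium had failed to colonize, so the label of the Akk group does not by itself establish colonization.

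Oligoadenylate synthetases bind double-stranded RNA and join ATP into short 2′-5′-linked chains, a second messenger that leads to the cutting of viral and cellular RNA. Their genes are induced by type I interferon through the interferon-stimulated response element in target promoters. Blood leukocytes raise these genes sharply during viral infection, and members of the family are commonly read as part of an interferon signature. In the mouse the ancestral Oas1 gene was duplicated many times, whereas Oas2 and Oas3 arose from repeats of the catalytic unit and the Oasl genes carry ubiquitin-like domains.

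The blood table lists the members under the NCBI Gene identifiers 246730 (Oas1a), 114643 (Oas1c), 231699 (Oas1e), 23960 (Oas1g), 246728 (Oas2), 246727 (Oas3), 231655 (Oasl1) and 23962 (Oasl2). All 8 genes lie on chromosome 5 in the GRCm38 build, the build named in the submitters' processing notes. Oasl2 (114896936 to 114912234) and Oasl1 (114923240 to 114937915) are neighbours on the plus strand. The other 6 form a cluster on the minus strand that runs from Oas2 (120730333 to 120749853) and Oas3 (120753098 to 120777661) through Oas1e (120786226 to 120795530), Oas1c (120800194 to 120812514) and Oas1g (120876142 to 120887613) to Oas1a (120896256 to 120907521). The GENCODE annotation of this build lists 12 Oas genes, of which Oas1b, Oas1d, Oas1f and Oas1h were not analysed here. The longest transcripts of Oas1a and Oas1g were 97.5% identical over 98.7% of Oas1a, so reads may be split between them and the values of this pair are uncertain as single genes. No other measured member had a partner of at least 95% identity over at least 50% of its transcript. The closest to that were Oas1e, at 89.8% identity to Oas1d over 95.1% of its length, and Oas1c, at 87.1% identity to Oas1d over 75.1%.

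Promoter sequence was available for 6 members from RefSeq (GRCm38.p6), in windows from 250 bases before the start of the gene to 50 bases after it. Oas2 and Oas1e had no entry. The windows were searched on both strands for GAAA, any 2 bases, then GAAA, the core of the interferon-stimulated response element, because this is the element through which interferon is known to act on the family. The 120 bases just before the start are shown for each, 5′ to 3′ on the strand of the gene, with matches in capitals.
Oas1a, chr5:120907526-120907645, minus strand: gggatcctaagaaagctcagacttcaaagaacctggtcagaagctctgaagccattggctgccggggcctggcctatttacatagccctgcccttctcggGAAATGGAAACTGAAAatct
Oas1g, chr5:120887614-120887733, minus strand: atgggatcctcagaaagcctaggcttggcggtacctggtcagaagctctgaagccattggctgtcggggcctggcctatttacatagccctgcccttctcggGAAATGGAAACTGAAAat
Oas1c, chr5:120812515-120812634, minus strand: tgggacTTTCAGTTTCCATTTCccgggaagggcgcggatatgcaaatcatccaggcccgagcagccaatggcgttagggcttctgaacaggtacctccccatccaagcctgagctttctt
Oas3, chr5:120777660-120777779, minus strand: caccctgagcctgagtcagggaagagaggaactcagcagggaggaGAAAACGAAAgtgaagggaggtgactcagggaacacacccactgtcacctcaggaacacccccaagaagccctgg
Oasl1, chr5:114923120-114923239, plus strand: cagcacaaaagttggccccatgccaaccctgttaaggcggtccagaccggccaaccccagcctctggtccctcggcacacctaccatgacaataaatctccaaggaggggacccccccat
Oasl2, chr5:114896814-114896933, plus strand: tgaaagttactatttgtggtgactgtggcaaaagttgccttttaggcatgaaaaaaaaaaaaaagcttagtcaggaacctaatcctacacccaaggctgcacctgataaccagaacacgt

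Of these 6 windows, 4 held the motif. Oas1a and Oas1g each carried 2 matches that overlap by sharing a GAAA, at 20 to 5 and 18 to 3 bases before the start. An identical run of 56 bases, 58 to 3 bases before the Oas1a start and 56 to 1 before the Oas1g start, contained them. Oas1c carried the same paired arrangement on the opposite strand, farther out at 114 to 99 bases before the start. The Oas1c window ends where the neighbouring Oas1b gene begins, at 120812635 on the plus strand. The paired matches lie between these diverging genes and nearer to the Oas1b start, so they cannot be assigned to Oas1c alone. Oas3 carried 1 match at 75 to 66 bases. The Oasl1 and Oasl2 windows held no match, with at most 7 of the 8 fixed letters found in each. Among all RefSeq windows of this length 3.44% held the motif, or 1079 of 27025 genes (3.99%), beside 270 of 6354 genes of the blood table with a window (4.25%), 22 of 44 genes (50%) of a hand-written list of interferon-induced effectors that had a window, 4 of 11 nucleic acid sensors and 3 of 16 interferon receptors, kinases and transcription factors. A match is a string of letters and not a measured binding site.

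The unit of every value below is FPKM, fragments per kilobase of transcript scaled to the mapped fragments of the library, which corrects for gene length and therefore allows levels of different genes to be compared within a library. Differences between groups are Akk minus Ctrl on the log2(FPKM + 0.1) scale with the standard error (SE) of a limma model. In the fit on all 6 libraries this SE came almost wholly from the spread shared by genes of similar level. It is therefore not the spread of the single gene between mice. For Oasl1 and Oas3 it was 0.92 and 0.94, although Ctrl 1 exceeded Ctrl 3 by 5.10 and 2.05 on the log2 scale. The sequencing depth is unknown because no counts were used, so counting error cannot be judged, and each group holds only 3 mice. One library stood apart: Ctrl 1 had the highest value of all 6 libraries in 7862 genes (98.2%), the Oas genes included in 7 of 8 cases, and 7966 genes (99.5%) had a lower mean in Akk. The median difference over all 8003 genes was −0.87, or 0.04 after each library was centred on its median log2 value, and −0.24 when Ctrl 1 was left out. Each Oas value is therefore given beside its centred counterpart and its value without Ctrl 1. In whole blood, fewer cells of a type and less RNA per cell cannot be told apart.

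The mean FPKM of all 8 Oas genes was lower in the *A. muciniphila*-treated group than in the controls, although the difference of Oas1e changed sign after median centring and with quantile normalization. Oasl2, an active synthetase with ubiquitin-like domains, was the most abundant member in every library and showed the largest difference of all genes in the table, with a mean of 67.7 ± 33.1 FPKM in Ctrl and 6.24 ± 2.82 in Akk (SD, n = 3 each). Oas1g, Oas1a, Oasl1, Oas2 and Oas3 followed with differences between −2.87 and −1.88. Oas1c and Oas1e lay near the lower limit of the table, and their differences were the smallest of the family with all libraries in the fit. Without Ctrl 1 that of Oas2 was the smallest, at −0.72 against −0.83 for Oas1c and −0.85 for Oas1e. The median over the 8 genes was −2.17, against −0.87 over all blood genes. It was −1.26 after centring and −1.08 without Ctrl 1.

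**Figure D1:**
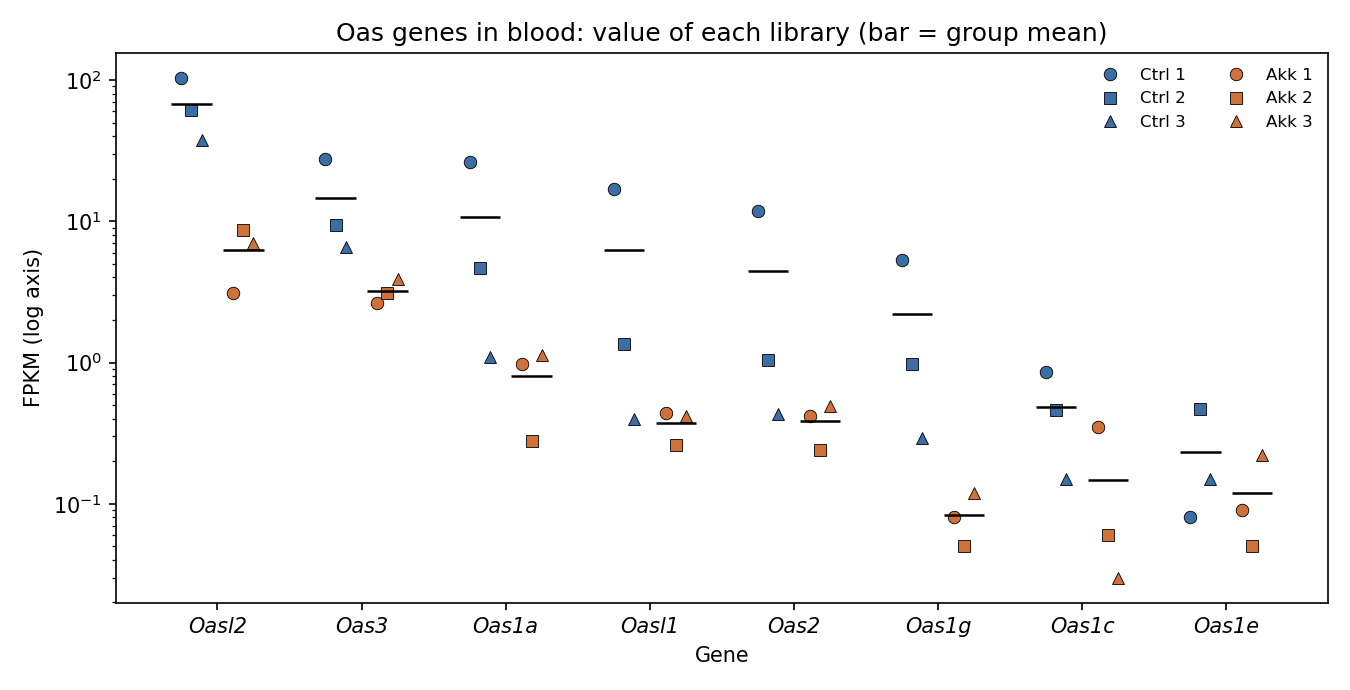
FPKM of the 8 Oas genes (horizontal axis) in each blood library, on a log axis, with Ctrl libraries in blue, Akk libraries in orange, 1 marker shape per replicate number and a bar at each group mean of 3. The 3 Akk points lie below the 3 Ctrl points for Oasl2, Oas3 and Oas1g, and Ctrl 1 is the top point for every gene except Oas1e.

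Oasl2 was measured at 103.36, 61.77 and 37.86 FPKM in Ctrl 1, 2 and 3, and at 3.12, 8.62 and 6.97 in Akk 1, 2 and 3. The groups were separate, with the lowest Ctrl value 4.39 times the highest Akk value. The log2 difference was −3.42 (SE 0.96). The ratio of the group means was 10.8, below those of Oas1g (26.5), Oasl1 (16.8), Oas1a (13.4) and Oas2 (11.5). Relative to the library median its highest level was in Ctrl 2 rather than Ctrl 1, as it stood at 6.10, 7.10 and 6.89 on the log2 scale in Ctrl 1, 2 and 3, and at 3.01, 4.96 and 4.61 in Akk 1, 2 and 3. Its difference was −2.50 (SE 0.46) after centring and −3.05 (SE 0.48) without Ctrl 1. Counted from the largest fall among the 8003 genes it held rank 1 with all libraries, rank 1 with a pseudocount of 1 and rank 2 without Ctrl 1. With a pseudocount of 0.01 the difference of Oas1g was larger than that of Oasl2 (−3.72 against −3.44). Without Ctrl 3 that of Oas1a was slightly larger (−3.81 against −3.78).

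Oas3, whose protein holds repeated synthetase units, was the second most abundant member. Its values were 27.39, 9.44 and 6.54 FPKM in Ctrl 1, 2 and 3, and 2.62, 3.13 and 3.91 in Akk 1, 2 and 3. The Akk values lay close together and below all Ctrl values, with a gap of 1.67 times between the nearest pair. The log2 difference was −1.88 (SE 0.94), and it was −0.96 (SE 0.33) after centring and −1.28 (SE 0.34) without Ctrl 1. On the centred scale the Ctrl libraries were nearly level, at 4.19, 4.41 and 4.38, against 2.77, 3.53 and 3.79 in Akk.

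Oas2, the related gene whose protein also has repeated units, behaved differently. It was listed at 11.75, 1.04 and 0.43 FPKM in Ctrl 1, 2 and 3, and at 0.42, 0.24 and 0.49 in Akk 1, 2 and 3. Ctrl 3 lay within the Akk values, so the groups overlapped, and the Ctrl mean of 4.41 ± 6.37 FPKM (SD, n = 3) rested on Ctrl 1. The log2 difference of −2.03 (SE 0.92) became −1.12 (SE 0.45) after centring and −0.72 (SE 0.46) without Ctrl 1, and the rank from the largest fall moved from 66 to 628 without that library.

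Of the Oas1 genes, the active synthetase Oas1a was the more abundant. Its values of 26.25, 4.63 and 1.10 FPKM in Ctrl 1, 2 and 3 spanned a wide range, and those in Akk 1, 2 and 3 were 0.98, 0.28 and 1.13. Ctrl 3 was below Akk 3 by a small margin, which was the only overlap. The log2 difference was −2.74 (SE 0.93), with −1.82 (SE 0.50) after centring and −1.58 (SE 0.67) without Ctrl 1.

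Oas1g, the near-identical active partner of Oas1a, had the larger ratio of means, 26.5, at a lower level. It was measured at 5.36, 0.98 and 0.29 FPKM in Ctrl 1, 2 and 3, and at 0.08, 0.05 and 0.12 in Akk 1, 2 and 3. All Akk values were below all Ctrl values, but they lie a few steps above the rounding of the table, which gives 2 decimals. Its log2 difference of −2.87 (SE 0.91) was the second largest of the family, and it stayed at −1.95 (SE 0.35) after centring and −1.84 (SE 0.49) without Ctrl 1. With a pseudocount of 1, which weighs low values less, its rank moved from 9 to 215.

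Because reads can be shared within this pair, the sum of Oas1a and Oas1g was also taken, a choice made after the values were seen. The sum was 31.61, 5.61 and 1.39 FPKM in Ctrl 1, 2 and 3, and 1.06, 0.33 and 1.25 in Akk 1, 2 and 3. On the FPKM scale the groups did not overlap. On the centred log2 scale they touched, with 2.22 in both Ctrl 3 and Akk 3.

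The remaining Oas1 genes were barely detected. Oas1c was listed at 0.85, 0.46 and 0.15 FPKM in Ctrl 1, 2 and 3, and at 0.35, 0.06 and 0.03 in Akk 1, 2 and 3, with overlap and a log2 difference of −1.28 (SE 0.83) that was −0.36 (SE 0.35) after centring and −0.83 (SE 0.60) without Ctrl 1. Oas1e was listed at 0.08, 0.47 and 0.15 FPKM in the Ctrl libraries and at 0.09, 0.05 and 0.22 in the Akk libraries. It was the only member not highest in Ctrl 1, and its difference changed sign with the scaling, from −0.50 (SE 0.70) to 0.42 (SE 0.64) after centring, and was −0.85 (SE 0.49) without Ctrl 1.

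Oasl1, which lacks synthetase activity and is known to repress the translation of Irf7, had the widest log2 range of the family between Ctrl 1 and Ctrl 3 before centring. It was measured at 17.00, 1.36 and 0.40 FPKM in Ctrl 1, 2 and 3, and at 0.44, 0.26 and 0.42 in Akk 1, 2 and 3. Ctrl 3 again fell among the Akk values. The log2 difference of −2.32 (SE 0.92) became −1.40 (SE 0.51) after centring and −0.88 (SE 0.50) without Ctrl 1, with ranks of 31 and 350 from the largest fall with and without that library.

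**Figure D2:**
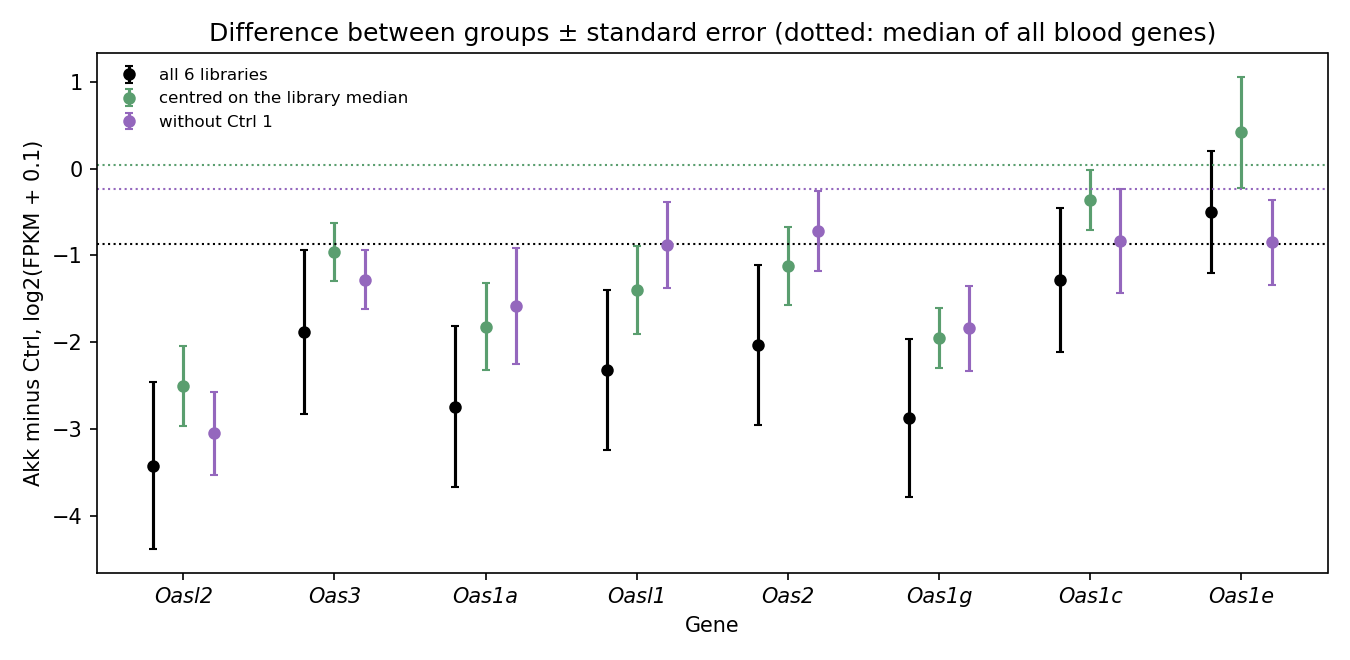
Akk minus Ctrl difference in log2(FPKM + 0.1) for each Oas gene, with bars of 1 standard error, fitted on all 6 libraries (black), after centring each library on its median (green) and without Ctrl 1 (purple), with the median of all 8003 blood genes dotted in the same colours. Oasl2 lies lowest in all 3 fits, and Oas1e crosses zero after centring.

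No Oas gene passed both thresholds of the study, a 1.5-fold difference with an adjusted p no higher than 0.05, when limma was fitted to all 8003 genes with Benjamini-Hochberg adjustment (0 of 8 members, with 0% of all genes called lower in Akk). At an unadjusted p under 0.05 the same limma fit held 6 of 8 members, namely Oas1a, Oas1g, Oas2, Oas3, Oasl1 and Oasl2, beside 3.4% of all genes. This p uses the spread shared by genes of similar level and not that of each gene alone. Every Akk library was below every Ctrl library in 3 of 8 members, Oas1g, Oas3 and Oasl2, beside 15.4% of all genes. After centring, this held for the same 3 members beside 4.44% of all genes. The rows of the table had been chosen on this contrast, so nothing is read from these shares.

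The count depended on single libraries. With Ctrl 1 left out, the groups were separate for the same 3 members beside 15.6% of all genes, or beside 9.1% after centring. With Ctrl 3 left out, 7 of 8 members, all but Oas1e, were separate beside 57.8% of all genes. In that reduced fit limma called 3 members past both thresholds beside 0.287% of all genes, namely Oas1a, Oas1g and Oasl2. With Akk 3 left out, Oas1a and Oas2 joined the separate members, giving 5 of 8 beside 18.6% of all genes.

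Within the control group, 6 of the 8 members fell into 2 patterns. Ctrl 1 exceeded Ctrl 3 by 1.45 for Oasl2 and 2.05 for Oas3 on the log2 scale, below the median of 2.19 over all genes. For Oasl1, Oas2, Oas1a and Oas1g the same difference was 5.10, 4.48, 4.46 and 3.81, well above that median. Ctrl 2 exceeded Ctrl 3 by 0.70 for Oasl2 and 0.52 for Oas3, near the median of 0.43, and by 1.98, 1.55, 1.47 and 1.10 for Oas1a, Oasl1, Oas1g and Oas2. Before centring, the order of the 3 control mice was therefore the same for these 6 genes, with Ctrl 1 highest and Ctrl 3 lowest. The medians over all genes had this order too, but the spread was much wider for 4 of the 6. After centring, Ctrl 1 was the lowest control for Oasl2 (6.10, 7.10 and 6.89 in Ctrl 1, 2 and 3) and Oas3 (4.19, 4.41 and 4.38). It remained the highest control for Oas1a, Oasl1, Oas2 and Oas1g. The low members Oas1c and Oas1e followed neither pattern, with Ctrl 1 minus Ctrl 3 at 1.93 and −0.47 and Ctrl 2 minus Ctrl 3 at 1.16 and 1.19.

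A similar division appeared in the correlations of centred levels over the 6 libraries, which are a description of points that share libraries and group differences. They include the control values used above and are not a separate observation. Oasl2 and Oas3 correlated at r = 0.97, and Oasl1 and Oas2 at r = 0.99. Oas1a correlated at r = 0.93 with Oas1g and at r = 0.91 with both Oasl1 and Oas2. Between the pairs the values were lower, with r = 0.44 for Oasl2 and Oasl1 and r = 0.43 for Oasl2 and Oas2. Oas1g correlated at r = 0.78 with Oasl2 and r = 0.80 with Oas3, and at r = 0.89 with Oasl1 and r = 0.88 with Oas2.

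The order of levels within the family was mostly shared by the libraries. Oasl2 was above Oas3 in 6 of 6 libraries, by 1.62 ± 0.96 (SD) on the log2 scale, Oas3 above Oas1a in 6 of 6 by 1.73 ± 1.2, and Oas1a above Oasl1 in 6 of 6 by 1.09 ± 0.62. Oasl1 and Oas2 did not differ beyond their spread (0.13 ± 0.29, higher in 4 of 6). Oas2 exceeded Oas1g in 6 of 6 by 1.41 ± 0.96, whereas Oas1g against Oas1c (0.72 ± 1.71) and Oas1c against Oas1e (0.45 ± 2.12) did not differ beyond their spread.

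Ratios between members within a library do not depend on how that library was scaled. Of the 28 pairs of members, 2 ratios of the member with the higher mean to the other were lower in every Akk library than in every Ctrl library, 4 were higher in every Akk library and 22 overlapped. Oasl2 was 3.77, 6.54 and 5.79 times as high as Oas3 in Ctrl 1, 2 and 3 but 1.19, 2.75 and 1.78 times in Akk 1, 2 and 3. These values did not overlap. As the rows had been selected on this contrast, and no such count was made over other pairs of genes, nothing further is read from the ratios. The other ratio that was lower in Akk was that of Oas1g to Oas1e, at 67.0, 2.09 and 1.93 in Ctrl and 0.889, 1.00 and 0.545 in Akk. Oas1e was low in every library, and Oas1g was near the rounding of the table in Akk. The ratio of 67.0 in Ctrl 1 came from Oas1g at 5.36 FPKM and Oas1e at 0.08.

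Of the 4 ratios that were higher in Akk, all had Oas1g as the lower member. Oas1a was 4.90, 4.72 and 3.79 times Oas1g in the Ctrl libraries and 12.2, 5.60 and 9.42 times in the Akk libraries. Oas3 was 5.11, 9.63 and 22.6 times Oas1g in Ctrl and 32.8, 62.6 and 32.6 times in Akk. Oasl1 and Oas2 gave the same direction, from 3.50 to 5.50 and from 4.08 to 5.25 times Oas1g in Akk against 1.38 to 3.17 and 1.06 to 2.19 in Ctrl. Since Oas1g was listed at 0.05 to 0.12 FPKM in Akk, 1 step of rounding moves these ratios by a visible amount.

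The summed FPKM of the 8 genes was 192, 80.2 and 46.9 in Ctrl 1, 2 and 3, and 8.10, 12.7 and 13.3 in Akk 1, 2 and 3. Oasl2 made up 53.8%, 77.1% and 80.7% of this sum in the Ctrl libraries and 38.5%, 67.9% and 52.4% in the Akk libraries, which overlapped. Oas3 made up 14.3%, 11.8% and 13.9% in Ctrl and 32.3%, 24.7% and 29.4% in Akk, with every Akk share above every Ctrl share. The share of Oas1a varied from 2.34% to 13.7% in Ctrl and from 2.21% to 12.1% in Akk.

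**Figure D3:**
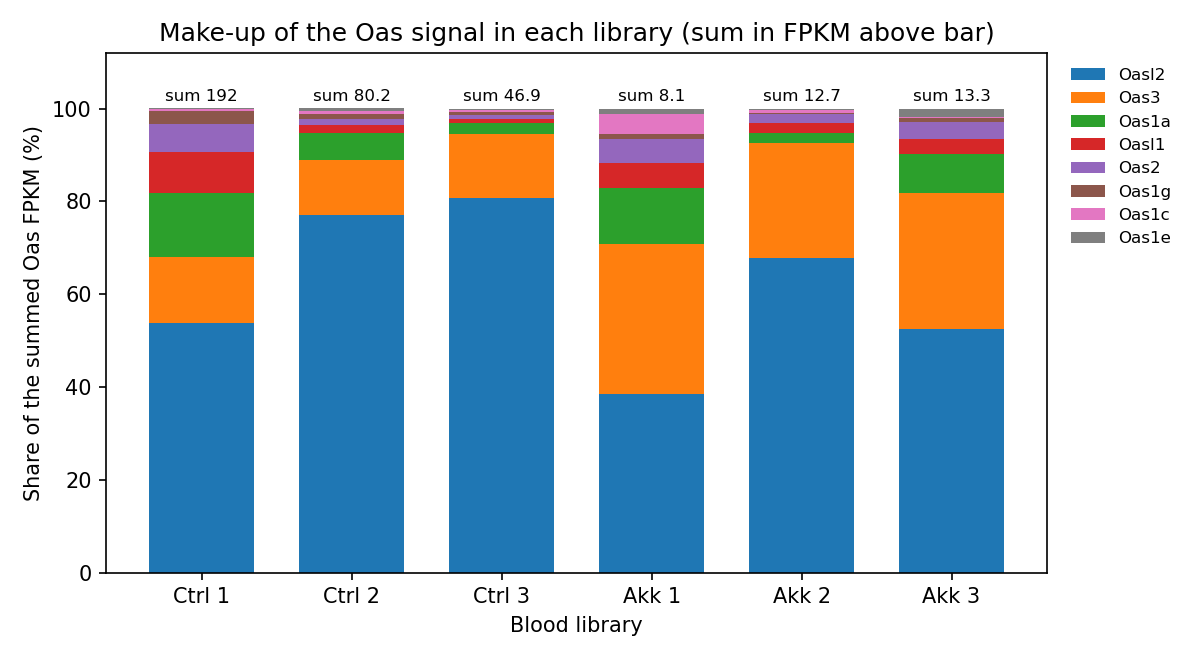
Share of each Oas gene in the summed Oas FPKM (vertical axis, percent) of each blood library, with the sum in FPKM above each bar. The Oas3 share is 11.8% to 14.3% in Ctrl and 24.7% to 32.3% in Akk, while the sum is 46.9 to 192 FPKM in Ctrl and 8.1 to 13.3 in Akk.

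Of a short hand-written list of 5 symbols around the 2′-5′-oligoadenylate pathway, 3 genes were measured, of which 1 was separate between groups, or 0 after centring, beside 15.4% and 4.44% of all genes. The 3 genes had a median difference of −0.84, or 0.07 after centring and −0.29 without Ctrl 1, beside −0.87, 0.04 and −0.24 for all genes. Of this list, Abce1, a factor that recycles ribosomes, was measured at 1.78, 0.35 and 0.30 FPKM in Ctrl 1, 2 and 3, and at 0.60, 0.19 and 0.29 in Akk 1, 2 and 3. Cgas, a cytosolic DNA sensor whose fold resembles that of the synthetases, was listed at 0.40, 0.13 and 0.01 FPKM in Ctrl and 0.04, 0.02 and 0.03 in Akk. These 2 genes overlapped between groups, with differences of −0.70 (SE 0.92) for Abce1 and −0.84 (SE 0.50) for Cgas that were 0.22 and 0.07 after centring.

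Upstream of the Oas genes, 18 of 20 listed interferon receptors, kinases and transcription factors were in the table. All 18 had a lower mean in Akk, as did 99.5% of all genes, and the groups were separate for 4 of them, or 3 after centring, beside 15.4% and 4.44% of all genes. The list had a median difference of −1.27, or −0.35 after centring and −0.43 without Ctrl 1. No member of any of the 4 pathway lists passed both limma thresholds, and none was separate in the other direction. All 4 lists were written by hand with earlier results of these data known.

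The receptor gene Ifnar1 was measured at 2.91, 0.68 and 0.42 FPKM in Ctrl and 0.75, 0.35 and 0.38 in Akk, with a centred difference of 0.00. Irf9, the DNA-binding subunit of the interferon-activated complex, was separate at 11.09, 2.14 and 1.10 FPKM in Ctrl against 1.00, 0.42 and 0.81 in Akk, by −1.95 (SE 0.93), or −1.04 after centring. Stat2 differed by −1.71 (SE 0.92) with overlap. Of the factor genes with their values shown here, Irf7, which drives the amplifying phase of interferon production, came closest to Oasl2. It was measured at 175.74, 198.04 and 79.14 FPKM in Ctrl and 15.57, 24.97 and 19.82 in Akk, a difference of −2.82 (SE 0.99), or −1.91 after centring. Like Oasl2, it was not highest relative to its library in Ctrl 1. Usp18, an inhibitor of the receptor that interferon itself induces, differed by −2.52 (SE 0.92), or −1.61 after centring, with separate groups on both scales. Jak1, a receptor kinase, differed by −1.26 with separate groups, but by −0.35 after centring, where the groups overlapped.

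Among nucleic acid sensors, 15 of 17 listed symbols were measured, where Tmem173 and Sting1 are symbols of the same gene. All 15 had a lower mean in Akk, with 4 separate before and 4 after centring. Their median was −1.56, or −0.65 after centring. The shares over all genes given above for lower means (99.5%) and for separate groups (15.4%, or 4.44% after centring) stand beside these counts and those of the next list. Those named by the fixed rule were Ifih1, the sensor of long double-stranded RNA, at −2.15 (SE 0.92), Tlr7, an endosomal sensor of single-stranded RNA, at −2.01, and Adar, an RNA-editing enzyme, at −1.60. Among interferon-induced effectors, 52 of 59 were measured, all 52 had a lower mean in Akk, and 20 were separate before and 20 after centring. Their median was −1.83, or −0.92 after centring and −0.85 without Ctrl 1, beside −2.17, −1.26 and −1.08 for the Oas genes. The effector with the largest difference under the rule, Ifit1, which binds foreign RNA ends, was measured at 47.24, 16.31 and 6.24 FPKM in Ctrl and 1.46, 2.33 and 1.65 in Akk, a difference of −3.18 (SE 0.94). It was followed by Rtp4 at −3.14 (SE 0.93), Lgals3bp at −2.57, Ifit1bl1 at −2.50 and Xaf1 at −2.43.

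**Figure D4:**
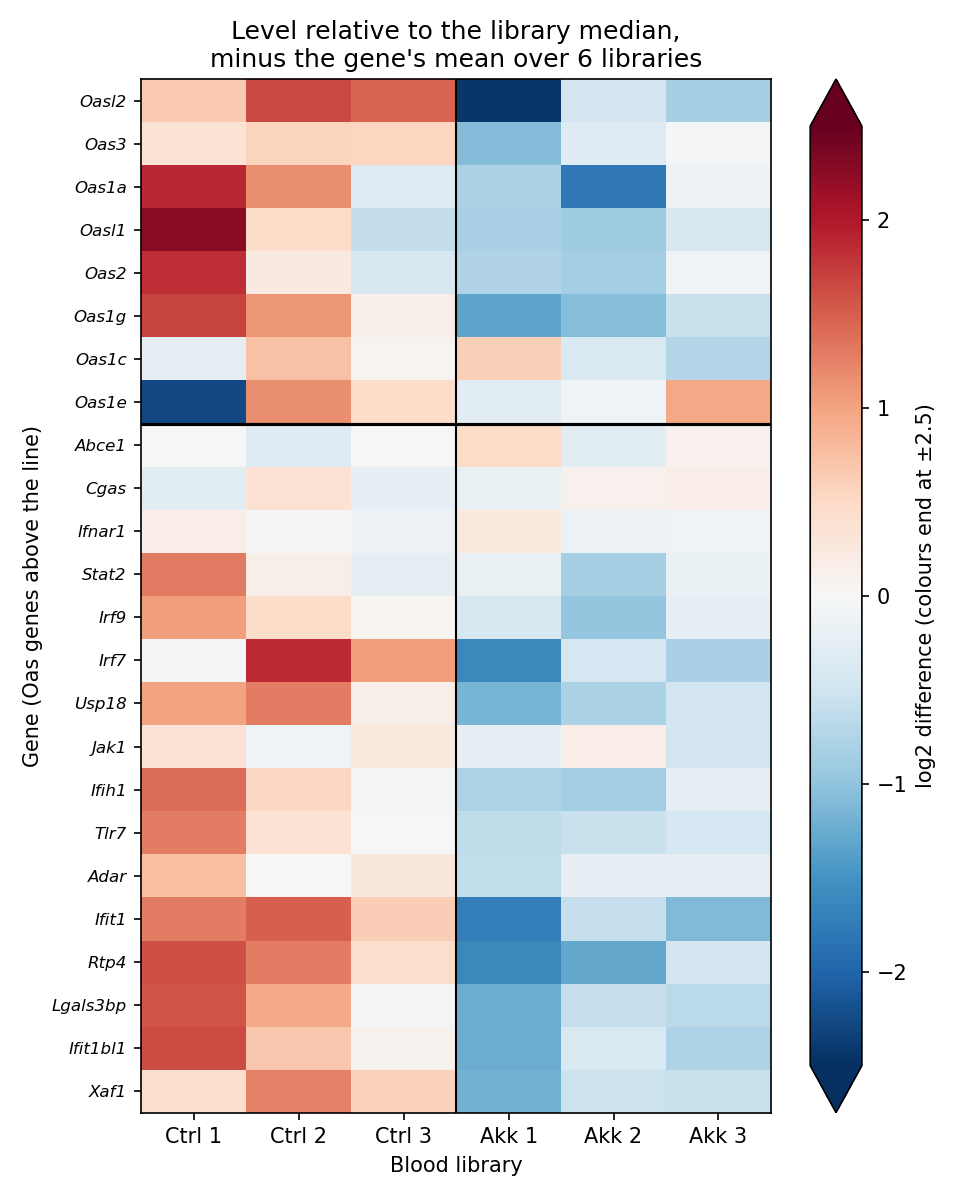
Level of the 8 Oas genes (above the line) and of the named pathway genes in each blood library, as log2(FPKM + 0.1) relative to the library median minus the mean of the gene over the 6 libraries, with red above and blue below that mean. Oasl2 and Irf7 are reddest in Ctrl 2, at a centred level of 7.10 for Oasl2, whereas Oas1a, Oasl1, Oas2 and Oas1g are reddest in Ctrl 1.

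Outside the family, the genes most like it were sought by the Pearson correlation of centred levels over the 6 libraries with the mean of the 6 Oas genes of at least 1 FPKM, among 2360 genes. The 10 highest were Msra (0.997), Rtp4 (0.989), Irgm1 (0.983), Lgals3bp (0.977), Ifih1 (0.976), Rnpep (0.973), Degs1 (0.971), Actr1a (0.968), Plin2 (0.968) and Tnfsf14 (0.964), of which 4 were on the pathway lists. Against Oasl2 alone, a comparison added after the values were seen, the nearest were Slfn14 (0.971), Trafd1 (0.971), Xaf1 (0.965), Nprl3 (0.961), Ncf4 (0.959), Gbp7 (0.956), Lgals9 (0.956), Tgtp2 (0.955), Irf7 (0.952) and Tdrd7 (0.951). Of these, 4 were likewise on the lists. The share of list genes among the 2360 compared was not counted, so nothing is read from these counts. The correlations rest on 6 points that fall into 2 groups and are a description.

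Markers of blood cell types moved with the Oas genes in part. The summed FPKM of 6 NK cell markers was 10.2 to 51.2 in Ctrl and 4.61 to 7.87 in Akk, with 5 of 6 genes separate, or 3 after centring, and a centred median of −0.90. Over all genes the separate share was 15.4%, or 4.44% after centring. The sum of 8 neutrophil markers was 251 to 1390 in Ctrl and 143 to 366 in Akk (3 separate, or 1 after centring, with a centred median of −0.56), that of 7 measured of 8 monocyte markers 73.8 to 968 and 78.0 to 125 (1 separate, also 1 after centring, with a centred median of −0.72), and that of 4 measured of 9 T cell markers 4.99 to 12.1 and 1.61 to 5.67 (2 separate, or 0 after centring, with a centred median of −0.32). The 2 measured B cell markers of 6 summed to 2.76 to 12.9 FPKM in Ctrl and 2.17 to 6.02 in Akk. The 6 platelet markers summed to 311 to 3120 and 398 to 508. None of the B cell or platelet markers was separate, and the centred medians were 0.25 and −0.12. The plasmacytoid dendritic cell, a major source of interferon, was represented by 2 of 5 markers. These summed to 0.10 to 0.43 FPKM in Ctrl and 0.05 to 0.06 in Akk, with 0 separate and a centred median of 0.30. Both had a lower mean in Akk. The Akk sums lie below the 0.1 added before the log, so the centred median does not show a higher level in Akk. No measured marker was listed at 0 in any library, and the 9 red cell markers were not analysed here. The part of these cell types in the Oas values was not tested.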

How the data were processed

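Blood RNA was selected with oligo(dT) beads and sequenced on the BGISEQ-500. The authors deposited FPKM rounded to 2 decimals, 1 column per library, for the genes they had called different between groups. Their methods name HISAT2, Bowtie2 and RSEM, whereas the submitters' processing notes name TopHat2, Cufflinks and GRCm38. Counts and depth are unknown here.

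From the FPKM, log2(FPKM + 0.1) was compared between Ctrl and Akk with limma 3.58.1 in R 4.3.3, with a mean-variance trend, no scaling, all 8003 blood genes in the fit and Benjamini-Hochberg adjustment. The code was tested on simulated data. For 3 against 3 mice an exact permutation test cannot go below p = 0.1, and none was run. A gene was called separate when every Akk library was below every Ctrl library. Motifs, positions and transcript identity came from RefSeq promoter windows, GENCODE (GRCm38) and blastn 2.17.0.

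Every Oas gene was named. Abce1, Cgas, Stat2, Irf9, Irf7 and Ifnar1 were named from the lists, with up to 5 others per list that had the largest fall, a mean FPKM of at least 1 and separate groups. Pde12 and Ifnar2 were not analysed here, and some results for single list genes are not reported here. The members, lists and markers were chosen with earlier results of these data known. Alternatives were pseudocounts of 1 and 0.01, a filter at a mean FPKM of 1, median centring, quantile normalization, no trend, a replicate block, another fold threshold of 2 and each library left out.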

Additional observations from a re-analysis of the deposited data

How the results depend on the processing

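The number of Oas genes past both limma thresholds ranged from 0 to 3 when each library was left out in turn, with 3 called only without Ctrl 3 (Oas1a, Oas1g and Oasl2), and it was 0 under every other alternative run. The number of separate members ranged from 3 to 7 when each library was left out, with 7 without Ctrl 3 and 5 without Akk 3. With quantile normalization it was 2. The replicate numbers mark different mice, and the deviations of libraries with the same number from their group means correlated at 0.04, −0.01 and −0.10. With the replicate block, 0 Oas genes passed and the median of the family was −2.17. Of all 8003 blood genes, 0 passed as lower in Akk with limma in the fit as reported, 1 with the replicate block, 1 after centring without Ctrl 1, 4 with a pseudocount of 0.01 and 23 without Ctrl 3. The difference of Oas1e reversed to 0.42 after centring and 0.03 with quantile normalization, and the median of the list of genes around the 2′-5′-oligoadenylate pathway reversed to 0.07 after centring. The cause was not tested. All 14 alternatives gave a lower Akk level for Oasl2 (log2 differences from −3.78 to −2.26, adjusted limma p from 0.0214 to 0.721), Oas1g (−3.75 to −1.23, adjusted limma p from 0.036 to 0.721), Oas1a (−3.81 to −1.33, adjusted limma p from 0.0214 to 0.999), Oas3 (−2.30 to −0.71), Oasl1 (−3.42 to −0.62) and Oas2 (−2.96 to −0.47). Of 13 alternatives, all gave a lower level for Oas1c (−2.00 to −0.36) and 11 for Oas1e. The blood libraries carry no depth, so counting error at low FPKM, which concerns Oas1c, Oas1e and Oas1g in particular, is unknown.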
